A study of Homo sapiens with 16 samples.

Results

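The (2S,6S)-HNK metabolite given alone was compared directly with estradiol (E2) given alone in HMC3 cells, an established human cell line labelled as microglial. The comparison used the raw counts of 2 libraries treated with 400 nM (2S,6S)-HNK and 2 treated with 0.1 nM E2, 4 of the 16 libraries of the series, all collected after 24 h. The cells of both groups were kept in medium without serum or phenol red after growth in charcoal-stripped serum, and the (2S,6S)-HNK group received no added E2. The vehicle group, treated with neither agent, gives the level from which each moved, and the groups treated with 400 nM (2R,6R)-HNK or 400 nM ketamine serve as comparators of related structure. All groups are 1 cell line. No source states that the libraries of a group came from separate cultures, so the p-values measure the spread between libraries, which may be technical.

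(2S,6S)-HNK is 1 of the hydroxynorketamines, metabolites formed from ketamine in the liver, and (2R,6R)-HNK is its mirror image. Estradiol acts mainly through the nuclear receptors ESR1 and ESR2, which bind DNA and recruit coactivators or corepressors, and through the membrane receptor GPER1. Among the genes that other signals control, those of zinc handling respond to the metal-sensing factor MTF1, which raises metallothioneins and the zinc exporter SLC30A1 when free zinc is high, and interferon-stimulated genes respond to STAT factors and IRF9.

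The 4 libraries held 55300614 and 60533798 counts with (2S,6S)-HNK and 62267790 and 58865355 with E2, against 55300614 to 81646165 over the series, and no library stood apart by depth. Levels are given as CPM, counts scaled to the library size after trimmed mean of M values (TMM) normalization, and 16004 of 25370 genes had enough counts to test. Low counts leaned to even numbers (65.8% of those from 1 to 9 and 49.9% of those of 500 or more), so counts of scarce genes may not be independent single reads. The label of the cell line was checked against marker genes. Of 20 microglial markers, 15 had at most 10 counts in any of the 6 libraries of the (2S,6S)-HNK, E2 and vehicle groups, and C1QA, C1QB, C1QC, SALL1 and FCGR3A were at 0 in all 6. The summed level of the list was 92.4 to 98.8 CPM with (2S,6S)-HNK and 84.7 to 86.3 CPM with E2. The 12 mesenchymal markers summed to 6411 to 6711 CPM with (2S,6S)-HNK and 7613 to 7643 CPM with E2, and their part in the results was not tested. Most of that sum was the collagen gene COL1A1, at 3997 to 5322 CPM over the 6 libraries. Of the 12, 3 had at most 10 counts, and LUM was at 0 in all 6. The neuronal markers summed to 94.7 to 103 CPM with (2S,6S)-HNK and 133 to 134 CPM with E2. The astrocyte markers summed to 119 to 121 CPM and 115 to 120 CPM. The receptors that bind E2 were scarce, since ESR1 had 0 counts in all 6 libraries, which allows up to 0.0542 CPM in the shallowest of them. ESR2 had 36 and 32 counts with (2S,6S)-HNK and 37 and 28 with E2.

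(2S,6S)-HNK and E2 left the cells with different transcript levels at many genes, and most of those called with a fold change of at least 2 were scarce ones. In edgeR's quasi-likelihood test, with p-values adjusted by the Benjamini-Hochberg method, 438 of 16004 genes (2.74%) had an adjusted p under 0.05 and a fold change of at least 2. Of these, 265 (1.66%) were higher with (2S,6S)-HNK and 173 (1.08%) were lower. With no limit on the fold change 7297 genes (45.6%) passed, 3694 (23.1%) higher and 3603 (22.5%) lower. The replicates were close, with a common coefficient of variation of 2.81%. Of the 265 genes that were higher, 132 were below 1 CPM in both groups and 50 reached 5 CPM, and of the 173 that were lower, 91 and 36 did. The libraries of the 2 groups did not overlap at 264 of the 265 and 172 of the 173, where 69.3% of all genes tested did not overlap. The genes that were higher had a median GC content of 55.6% and those that were lower 50.7%, against 48.8% over all genes tested. With the libraries corrected for GC content and exon length, 403 of the 438 calls stayed in place. The count fell to 271 when DESeq2 was fitted to the 4 libraries alone, and to 268 when every library had to hold 10 counts of a gene.

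**Figure D1:**
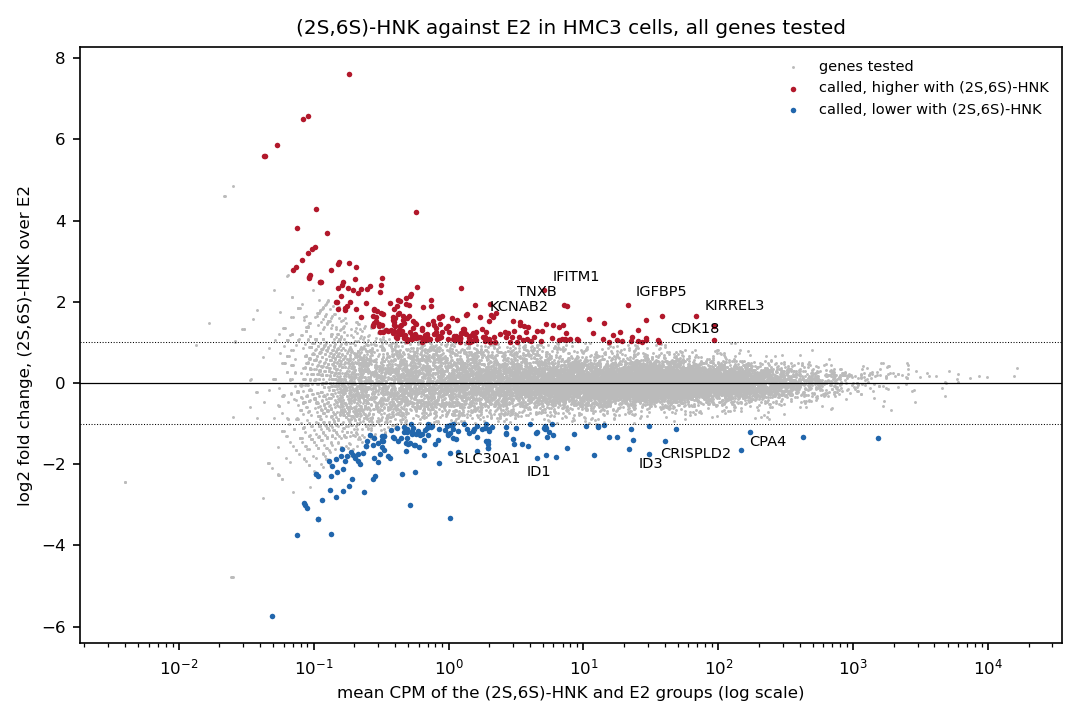
Log2 fold change of (2S,6S)-HNK over E2 (vertical axis) against the mean CPM of both groups (horizontal, log scale) for the 16004 genes tested, with genes called at a fold change of at least 2 in red (265 higher) and blue (173 lower), and dotted lines at 1 and -1. Most called genes lie at low levels, and genes above 100 CPM with such a change are few.

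The 10 largest rises among genes that reached 5 CPM were in IFITM1, IGFBP5, KCNAB2, TNXB, KIRREL3, CDK18, TLE2, SEMA5A, OPRL1 and ABCA3. IFITM1 (ENSG00000185885, chromosome 11, 310041 to 315272 in GRCh37), an interferon-induced membrane protein that limits virus entry, had the largest fold change and the least even replicates. Its level was 3.96 and 13.1 CPM with (2S,6S)-HNK, 1.76 and 1.71 CPM with E2, and 1.37 and 1.06 CPM with vehicle. The groups did not overlap, but the (2S,6S)-HNK libraries differed by 3.30-fold, the widest gap of the 11759 genes with a mean of at least 2 CPM in that group, where the median gap was 1.05-fold. The log2 fold change was 2.30 ± 0.26 (SE, edgeR, adjusted p = 1.53e-10). Without (2S,6S)-HNK replicate 2 it was 1.19 and IFITM1 stayed called, and the count of all genes called was 404. IGFBP5, a binding protein of insulin-like growth factors on chromosome 2 (217536828 to 217560272), was at 34.2 and 33.3 CPM with (2S,6S)-HNK and at 9.82 and 7.85 CPM with E2, with vehicle at 8.88 and 7.60 CPM. Both (2S,6S)-HNK libraries lay above all E2 and vehicle libraries, and the log2 fold change was 1.93 ± 0.08 (SE, adjusted p = 4.79e-25).

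KCNAB2, a beta subunit of voltage-gated potassium channels, was at 11.75 and 11.03 CPM against 2.36 and 3.66 CPM with E2, a log2 fold change of 1.92 ± 0.12. TNXB, which encodes the matrix glycoprotein tenascin X, was at 11.6 and 12.3 CPM against 3.22 and 3.21 CPM, a log2 fold change of 1.89 ± 0.11. KIRREL3, an adhesion protein of the immunoglobulin superfamily with a role at synapses, was the most abundant of the rises, at 101 and 108 CPM against 33.9 and 32.6 CPM. The log2 fold change of KIRREL3 was 1.65 ± 0.04 (SE, edgeR, adjusted p = 1.21e-33). CDK18, a kinase of the cyclin-dependent family, was at 58.6 and 57.7 CPM against 19.5 and 17.8 CPM, a log2 fold change of 1.64 ± 0.06. In each of these genes both libraries of (2S,6S)-HNK lay above both of E2, and both of E2 lay above both of vehicle. The other 4 had log2 fold changes of 1.57 ± 0.09 for TLE2, a corepressor of the Groucho family, 1.56 ± 0.06 for SEMA5A, an axon guidance protein, 1.50 ± 0.17 for OPRL1, the nociceptin receptor, and 1.47 ± 0.09 for ABCA3, a lipid transporter. KCNAB2 shares 212 bases of exon with NPHP4, and TNXB shares 298 with CYP21A2 and has a near-identical partial copy, so part of their reads cannot be told apart from those genes. KIRREL3 shares 205 bases with KIRREL3-AS3.

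The 10 largest falls were in LRRN4, ID1, IGFN1, SLC30A1, CRISPLD2, CPA4, ID3, CYP1B1, SHISA2 and ARC. ID1 and ID3 encode proteins that bind basic helix-loop-helix factors and keep them from DNA, and both are textbook targets of bone morphogenetic protein signals. ID1 was at 3.25 and 2.24 CPM with (2S,6S)-HNK and 10.5 and 9.01 CPM with E2, a log2 fold change of -1.83 ± 0.13 (SE, edgeR, adjusted p = 2.14e-17). ID3 was at 10.2 and 10.9 CPM against 33.1 and 32.3 CPM, a log2 fold change of -1.63 ± 0.07. Vehicle lay between the groups in both, near E2, at 7.81 and 8.59 CPM for ID1 and 26.4 and 25.9 CPM for ID3. Of related genes, chosen after their values were seen, ID2 fell by 0.34 on the log2 scale and the inhibitory SMADs SMAD6 and SMAD7 fell by 0.78 and 0.90.

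CYP1B1, an enzyme that hydroxylates estradiol, was at 3.56 and 3.87 CPM with (2S,6S)-HNK, 11.2 and 11.4 CPM with E2, and 6.93 and 5.82 CPM with vehicle. CYP1B1 changed by -1.60 ± 0.11 on the log2 scale (SE, edgeR, adjusted p = 1.29e-17), and the 3 groups did not overlap, with vehicle in the middle. CYP1B1 shares 677 bases with the antisense gene CYP1B1-AS1, and the sources used here do not say whether counting used strand. CRISPLD2, a secreted protein that binds lipopolysaccharide, showed the same order, at 13.98 and 14.4 CPM, 47.5 and 47.4 CPM and 25.5 and 26.0 CPM. Its log2 fold change of -1.74 ± 0.06 was made up of a level 0.88 above vehicle with E2 and 0.86 below vehicle with (2S,6S)-HNK. ARC, an activity-regulated gene of synapses, was at 1.52 and 2.14 CPM, 4.69 and 5.72 CPM, and 2.73 and 2.33 CPM. It fell by 1.50 ± 0.18 on the log2 scale relative to E2. CPA4, a secreted carboxypeptidase, was the most abundant of the 10, at 71.4 and 70.3 CPM against 222 and 221 CPM with E2 and 282 and 290 CPM with vehicle. Its log2 fold change was -1.65 ± 0.03 (SE, edgeR, adjusted p = 3.61e-39), and it lay below vehicle in both groups. The fitted changes of LRRN4, IGFN1 and SHISA2 were -1.84, -1.78 and -1.55.

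**Figure D2:**
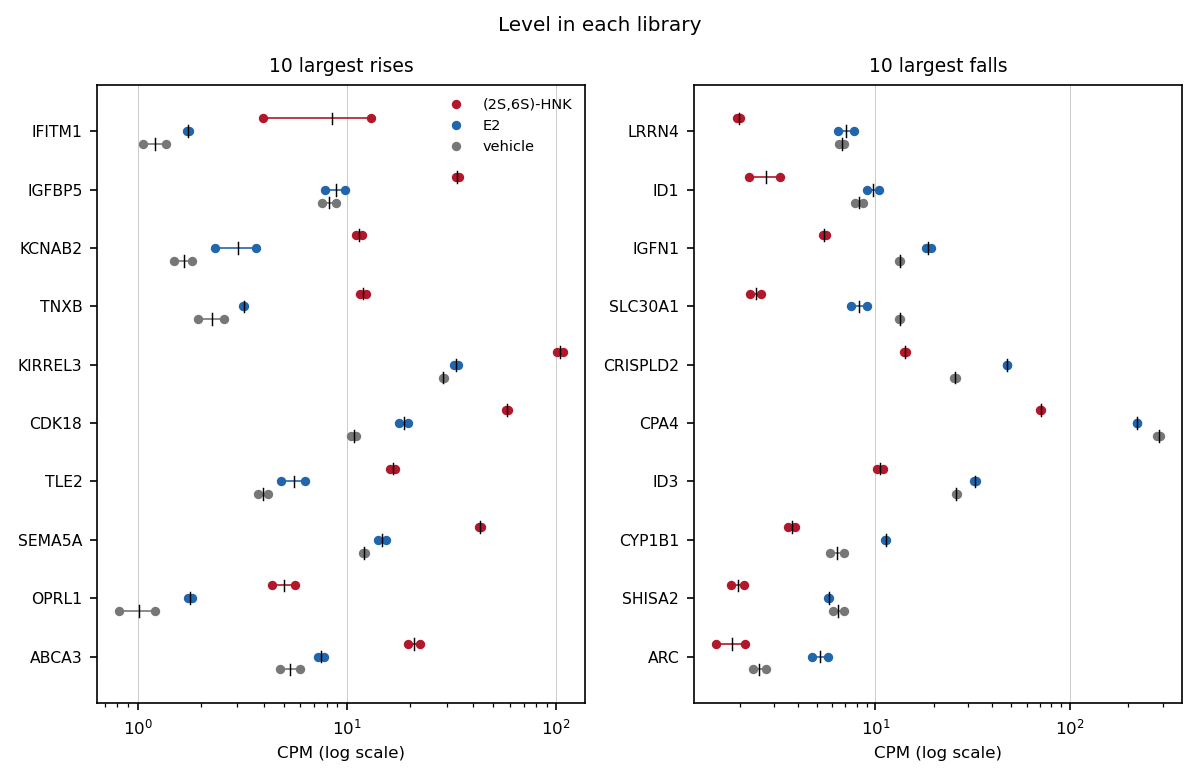
CPM (log scale) in each library for the 10 largest rises (left) and 10 largest falls (right), with points for libraries of (2S,6S)-HNK (red), E2 (blue) and vehicle (grey) and a short black line at each group's mean. The (2S,6S)-HNK and E2 libraries do not overlap in any of the 20 genes, and the widest gap between replicates is that of IFITM1.

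Set against vehicle, the 2 directions differed in arrangement. In all 10 rises the vehicle mean lay below both groups, although E2 itself did not pass against vehicle for IFITM1 (log2 difference 0.51, adjusted p = 0.166, edgeR) and IGFBP5 (0.10, adjusted p = 0.368). In 7 of the 10 falls the vehicle mean lay between the groups, and in SLC30A1, CPA4 and SHISA2 it lay above both. Among the falls E2 did not pass against vehicle for LRRN4 (0.08, adjusted p = 0.588, edgeR) and SHISA2 (-0.17, adjusted p = 0.254). Both distances from vehicle use the same vehicle libraries, and no relation between them was tested. Over all genes tested, the distance between libraries was 65.9 to 66.3 between the (2S,6S)-HNK and E2 groups, 50.9 within (2S,6S)-HNK and 46.6 within E2. These are Euclidean distances of log2 CPM. The (2S,6S)-HNK libraries lay 88.8 to 91.3 from vehicle and the E2 libraries 70.2 to 71.9.

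Zinc handling differed at its exporter and its storage proteins. SLC30A1 (ENSG00000170385, chromosome 1, 211744910 to 211752503), the zinc exporter of the plasma membrane, was at 2.57 and 2.27 CPM with (2S,6S)-HNK, 9.004 and 7.45 CPM with E2 and 13.4 and 13.3 CPM with vehicle. It fell by 1.77 ± 0.12 on the log2 scale (SE, edgeR, adjusted p = 1.55e-17), a 3.40-fold lower level, and the 3 groups did not overlap. The importer SLC39A10 had the opposite direction, at 40.4 and 38.6 CPM against 25.2 and 25.7 CPM with E2, a log2 fold change of 0.64 ± 0.06, but with (2S,6S)-HNK it lay near vehicle, at 34.6 and 37.3 CPM. Of 20 zinc transporters tested, 6 were higher and 5 lower (30.0% and 25.0%, against 23.1% and 22.5% of all genes tested), with a median log2 fold change of -0.03, where the median over all genes tested was -0.005. Without E2 replicate 1, 3 were lower, and without (2S,6S)-HNK replicate 2 the median was 0.03. SLC30A2 had 0 counts in both (2S,6S)-HNK libraries and 8 and 4 with E2, a fall that rests on 12 counts. SLC30A9 passed with a change of -0.16 and lost its call under 12 of 15 other settings.

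Metallothioneins, the small cysteine-rich proteins that bind zinc and copper, moved one way or did not pass. Of 8 genes of the list tested, 7 metallothioneins and MTF1, 4 fell and 0 rose at any fold, where 22.5% of all genes tested fell, and the list's median was -0.33. MT1E (chromosome 16, 56659387 to 56661024) was at 21.8 and 21.5 CPM with (2S,6S)-HNK, 59.4 and 57.6 CPM with E2 and 77.0 and 73.6 CPM with vehicle. MT1E changed by -1.43 ± 0.05 on the log2 scale (SE, edgeR, adjusted p = 1.20e-29). MT1F fell by 0.82 ± 0.14, MT1X by 0.80 ± 0.11 and MT2A, the most abundant, by 0.59 ± 0.03, the last from 296 and 310 CPM with E2 to 199 and 202 CPM. In all 4 the libraries of the 2 groups did not overlap, and each fell in every fit that left out 1 library. MT2A and MT1X with E2 were at the level of vehicle, with log2 differences of 0.01 and 0.02. The zinc sensor MTF1, with means of 23.4 and 24.3 CPM, had a change of -0.06 and did not pass, and MT1A, MT1G and MT3 were below 1 CPM. The genes of the family are close copies on 1 stretch of chromosome 16, so reads could have been lost or shared among them.

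Promoters of 3 of the zinc genes that fell are shown because the metal response element, to which MTF1 binds, has the core TGCNCNC, here searched on both strands with N for any base, which is looser than the published core. Each is 250 bases before to 50 after the start given by RefSeq on GRCh38.p14, found once on its chromosome in GRCh37, printed 5′ to 3′ on the strand of the gene with matches in capitals. They are MT2A at chr16:56642246-56642545 (plus strand, 8 matches), MT1X at chr16:56716132-56716431 (plus strand, 4 matches) and SLC30A1 at chr1:211752454-211752753 (minus strand, 2 matches).
MT2A: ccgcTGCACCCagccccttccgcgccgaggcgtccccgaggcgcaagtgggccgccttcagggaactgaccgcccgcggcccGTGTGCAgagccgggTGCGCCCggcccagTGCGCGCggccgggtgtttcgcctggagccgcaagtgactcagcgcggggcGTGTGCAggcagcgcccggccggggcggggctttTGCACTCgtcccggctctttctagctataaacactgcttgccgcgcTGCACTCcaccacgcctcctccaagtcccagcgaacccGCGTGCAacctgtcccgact
MT1X: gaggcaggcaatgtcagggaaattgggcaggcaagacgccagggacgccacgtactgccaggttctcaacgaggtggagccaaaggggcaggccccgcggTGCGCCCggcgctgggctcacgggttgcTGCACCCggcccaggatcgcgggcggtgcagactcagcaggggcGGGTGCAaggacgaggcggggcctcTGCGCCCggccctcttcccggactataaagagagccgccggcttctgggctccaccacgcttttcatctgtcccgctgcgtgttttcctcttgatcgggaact
SLC30A1: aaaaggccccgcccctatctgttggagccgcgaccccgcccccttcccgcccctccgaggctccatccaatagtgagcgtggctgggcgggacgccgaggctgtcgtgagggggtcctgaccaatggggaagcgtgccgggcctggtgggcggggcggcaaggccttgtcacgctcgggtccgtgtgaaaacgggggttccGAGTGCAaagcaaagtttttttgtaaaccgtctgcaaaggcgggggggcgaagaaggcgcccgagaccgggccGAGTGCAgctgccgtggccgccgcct
The core is common, since 55.2% of 27305 promoters of this length hold at least 1 match and 23.8% at least 2, but 2.78% hold at least 4 and 0.0879% at least 8. Of the 20 genes named by size of change, 17 matched a promoter in the table, and 13 of the 17 held the core. These were genes of both directions, and OPRL1, which rose, held 4 matches, as many as MT1X. The 3 promoters shown were chosen with these matches known. Of the other zinc genes in the table, SLC39A10 and SLC30A9 held 0 matches and SLC39A11 held 1. A match is a description of the letters and not a bound site.

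**Figure D3:**
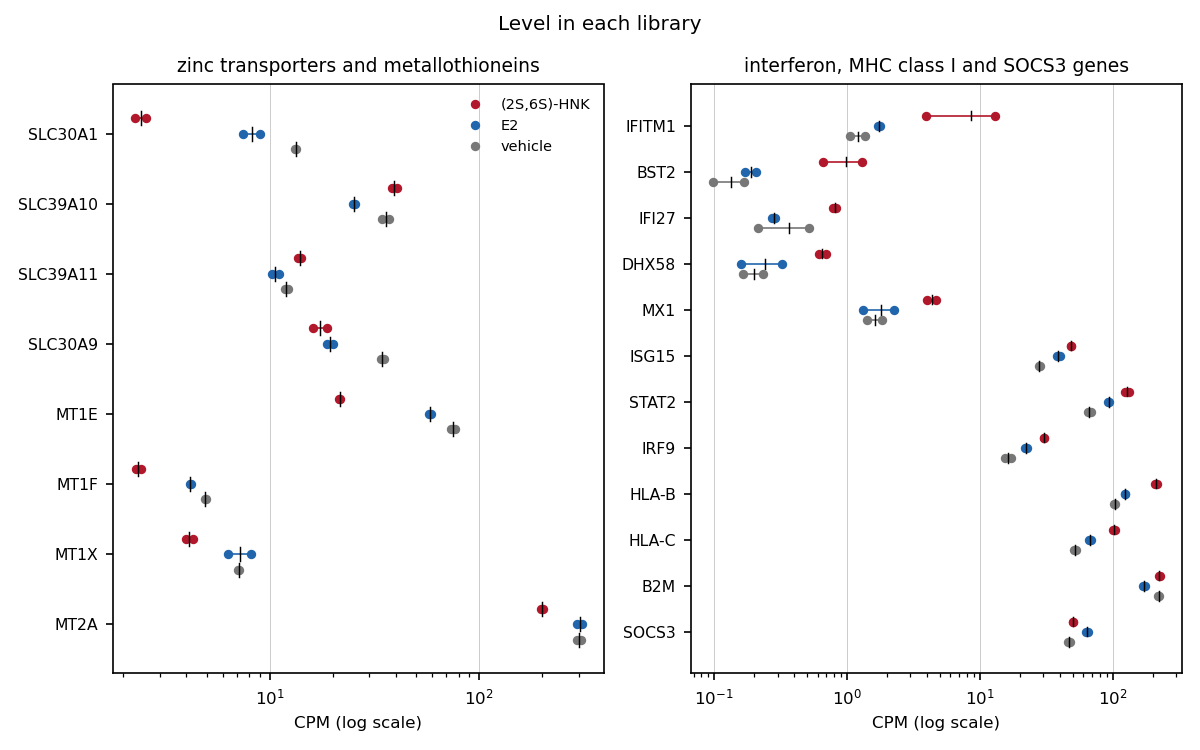
CPM (log scale) in each library for zinc transporters and metallothioneins (left) and for interferon-stimulated genes, MHC class I genes and SOCS3 (right), with (2S,6S)-HNK in red, E2 in blue, vehicle in grey and group means as short black lines. SLC30A1 and the 4 metallothioneins lie lowest with (2S,6S)-HNK, and HLA-B, HLA-C, STAT2 and IRF9 lie highest with it.

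Interferon-stimulated genes were more often higher than lower with (2S,6S)-HNK, against an even split over all genes. Of 48 tested, 19 rose and 8 fell at any fold, where 23.1% and 22.5% of all genes did, and the median log2 fold change was 0.14. The count was 18 or 19 higher in each fit without 1 library, and 4 to 8 lower (4 without E2 replicate 1 and 5 without E2 replicate 2 or (2S,6S)-HNK replicate 1). Of the genes that passed, 5 had a fold change of at least 2, all of them higher. BST2, which tethers budding virus to the cell, had 36 and 77 counts with (2S,6S)-HNK and 13 and 10 with E2, a log2 fold change of 2.37 ± 0.44. As for IFITM1, the higher value is that of replicate 2. IFI27 had 43 and 49 counts against 17 and 17, and DHX58, a regulator of RNA sensing, had 38 and 36 against 10 and 19. DHX58 lost its call without E2 replicate 1 (adjusted p = 0.138, edgeR). MX1, an antiviral GTPase, was at 4.02 and 4.70 CPM against 2.28 and 1.32 CPM, a log2 fold change of 1.27 ± 0.18, although it shares 562 bases with TMPRSS2. More abundant members changed less. ISG15 was at 48.9 and 48.4 CPM against 37.9 and 39.9 CPM and IFITM3 at 158 and 162 CPM against 127 and 125 CPM, log2 fold changes of 0.32 ± 0.05 and 0.34 ± 0.03. HERC6 and the RNA sensor DDX58 (RIG-I) went the other way, with log2 fold changes of -0.67 and -0.50. HERC6 lost its call without (2S,6S)-HNK replicate 2 (adjusted p = 0.0616, edgeR), and DDX58 lost its call under 3 other settings, with adjusted p up to 0.156. In the same list IFIT2 and IFIT3 did not pass at -0.33 and -0.20. With vehicle as reference the median of the list was 0.43 for (2S,6S)-HNK and 0.13 for E2.

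The promoter of IFITM1 is shown because it holds the core of the interferon-stimulated response element, to which STAT factors and IRF9 bind as a complex. The letters searched were GAAA, 2 bases of any kind and GAAA, on both strands. The RefSeq promoter lies at chr11:313790-314089 in GRCh37 (plus strand), and its 2 matches are in capitals.
IFITM1: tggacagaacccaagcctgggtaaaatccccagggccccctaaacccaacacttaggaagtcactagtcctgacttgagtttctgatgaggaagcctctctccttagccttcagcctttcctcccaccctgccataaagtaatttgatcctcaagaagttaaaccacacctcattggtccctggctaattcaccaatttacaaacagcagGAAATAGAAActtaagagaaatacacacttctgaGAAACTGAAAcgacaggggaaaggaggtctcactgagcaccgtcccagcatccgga
At least 1 match was found in 3.65% of promoters and at least 2 in 0.271%. The STAT site TTCNNNGAA, in 7.88% of promoters, was also found once in IFITM1, where it overlaps 1 of the matches shown. Of the 17 promoters of genes named by size, 2 held the STAT site (IFITM1 and ID3), 1 held the response element core (IFITM1) and 0 held the palindromic estrogen response element (GGTCA, 3 bases of any kind and TGACC), which 0.0659% of all promoters hold.

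Signal proteins upstream of these genes split. Of a list of 28 genes, which holds JAK, STAT, SOCS and PIAS genes, receptor chains of the IL6 family and SIN3A, 9 were higher and 9 lower (32.1% each way), where 23.1% of all genes tested were higher and 22.5% lower. The transcription factors STAT2, STAT3, STAT5A, STAT5B and IRF9 were higher, and STAT6 was lower, by 0.17 on the log2 scale. STAT3 was at 189 and 191 CPM with (2S,6S)-HNK, 152 and 150 CPM with E2 and 133 and 134 CPM with vehicle, a log2 fold change of 0.33 ± 0.03 (SE, edgeR, adjusted p = 6.97e-14). STAT2 and IRF9 each rose by 0.45 on the log2 scale. Of the receptor chains OSMR rose by 0.49, and IL6ST (gp130) and LIFR fell by 0.15 and 0.22. Among the kinases JAK3 rose by 0.73 ± 0.14 and TYK2 by 0.28 ± 0.04, and JAK1 fell by 0.12 ± 0.03. Of the SOCS genes, which encode feedback inhibitors, SOCS7 rose by 0.55 ± 0.05, SOCS2 did not pass, and SOCS1, SOCS3, SOCS4, SOCS5 and SOCS6 fell. SOCS1 had the largest fitted change of them, -0.87 ± 0.28, from 47 and 47 counts against 72 and 111, and lost its call under 3 other settings, among them without E2 replicate 2 (-0.47, adjusted p = 0.285, edgeR). SOCS3, which the signals of STAT3 induce and which blocks them in return, was lower, at 50.2 and 50.4 CPM against 63.0 and 64.6 CPM with E2, a log2 fold change of -0.34 ± 0.04, and lay near vehicle (48.0 and 46.0 CPM). The corepressor SIN3A, a partner of STAT3, was at 82.3 and 80.0 CPM against 84.1 and 82.7 CPM and did not pass (-0.04, 95% interval -0.12 to 0.04). The cytokines IL11 and LIF, which signal through gp130 to STAT3, were lower. IL11 was at 47.7 and 51.3 CPM against 83.2 and 84.5 CPM and LIF at 53.1 and 51.7 CPM against 85.0 and 82.6 CPM, log2 fold changes of -0.76 ± 0.04 and -0.68 ± 0.04. LIF with (2S,6S)-HNK was at the level of vehicle (51.2 and 50.6 CPM). Of 25 cytokines and chemokines, 6 rose and 4 fell (24% and 16%), of which the share that rose is close to that over all genes, and the growth factor-like cytokine GDF15 rose by 0.89 ± 0.13.

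Antigen presentation was mostly higher. Of 20 genes of MHC class I presentation, 13 rose and 3 fell (65.0% and 15.0%, against 23.1% and 22.5% of all genes tested), with a median of 0.28. HLA-B was at 209 and 214 CPM with (2S,6S)-HNK, 123 and 124 CPM with E2 and 105 and 103 CPM with vehicle, a log2 fold change of 0.78 ± 0.03 (SE, edgeR, adjusted p = 1.53e-27). HLA-C rose by 0.59 ± 0.04 and B2M, the light chain, by 0.39 ± 0.03. For HLA-C the vehicle mean, 52.2 CPM, lay below both groups (102 and 67.9 CPM). B2M with (2S,6S)-HNK was at the level of vehicle, with means of 224 and 221 CPM, and E2 was the lower group at 171 CPM. The HLA genes are near copies whose reads the counting could split. NLRC5, a transactivator of MHC class I genes, and the chaperone CANX fell, with log2 fold changes of -0.42 ± 0.11 and -0.24 ± 0.02. Of 20 complement genes, 8 rose and 1 fell. SERPING1, the C1 inhibitor, was at 5.91 and 6.80 CPM against 3.20 and 3.29 CPM, a log2 fold change of 0.97 ± 0.12, and the gene that fell was C1QBP, a mitochondrial protein that binds C1q, at -0.42 ± 0.04. The count of complement genes that rose was 5 to 7 without 1 library, and the 5 of 20 without E2 replicate 2 is near the share over all genes.

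Estrogen receptors and their coregulators had 7 members lower and 0 higher of 13 tested, where 22.5% of all genes tested were lower and 23.1% higher, with a median of -0.21. SAFB2, which represses ESR1, fell by 0.54 ± 0.04, with vehicle above both groups at 71.1 CPM in each library. GPER1 had 64 and 45 counts with (2S,6S)-HNK and 84 and 92 with E2 and did not pass (-0.59, adjusted p = 0.0561, edgeR), but passed under 5 other settings. Of 24 genes known to respond to estrogen in breast cells, 3 rose and 8 fell (12.5% and 33.3%), with a median of -0.13, but 4 fell without E2 replicate 2 and 5 without (2S,6S)-HNK replicate 1. CCND1 (cyclin D1) was at 187 and 181 CPM against 264 and 259 CPM with E2, a log2 fold change of -0.51 ± 0.03 with 497 bases shared with ORAOV1, and vehicle was higher than either, at 370 and 374 CPM. XBP1, a stress factor that estrogen induces in breast cells, was at 221 and 211 CPM against 151 and 153 CPM, a log2 fold change of 0.51 ± 0.03. GREB1, another such gene, was at 1.86 and 1.70 CPM against 1.20 and 1.17 CPM, and its call (0.58 ± 0.23) was lost under 6 other settings. 

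Among neuronal and synaptic genes that ketamine studies follow, DLG4, which encodes the scaffold PSD95, was at 32.5 and 38.4 CPM with (2S,6S)-HNK and 20.5 and 23.2 CPM with E2. DLG4 rose by 0.70 ± 0.06 on the log2 scale (SE, edgeR, adjusted p = 3.89e-13). The elongation factor EEF2 was at 5510 and 5769 CPM against 4573 and 4569 CPM, a log2 fold change of 0.30 ± 0.02. The neurotrophin BDNF did not pass, at 25.4 and 24.2 CPM against 24.5 and 25.9 CPM, a log2 difference of -0.02 (95% interval -0.14 to 0.10), and its reads may include those of BDNF-AS. SYN1, which encodes synapsin I, was at 1.004 and 0.933 CPM against 0.69 and 0.92 CPM and did not pass (0.27 ± 0.34). Of the 27 genes of this list 6 were higher and 6 lower, 22.2% each way and thus at the shares over all genes tested (23.1% and 22.5%), among them the neurotrophin NTF3 at 1.17 ± 0.30. The subunits of ionotropic glutamate receptors, the family to which the NMDA receptor that ketamine blocks belongs, were scarce, with GRIN2D the most abundant at means of 5.71 and 6.32 CPM. Of 9 genes of the list tested, 4 were higher and 0 lower, but 1 passed without (2S,6S)-HNK replicate 2. Among the 4 was GRINA, a related gene that encodes no receptor subunit, at means of 187 and 172 CPM and a log2 fold change of 0.11 ± 0.03. GRIN2B had at most 4 counts in these 4 libraries, and GRIN3B was at 3.32 and 3.14 CPM against 1.75 and 2.26 CPM, a log2 fold change of 0.69 ± 0.17. Of 28 potassium channel genes 8 were higher and 2 lower (28.6% and 7.14%), among them KCNG1 by 0.78 ± 0.08 and KCNN4, the calcium-activated channel of immune cells, by -0.62 ± 0.11, and without (2S,6S)-HNK replicate 1 the number higher was 5.

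Stress programs differed in the direction that most of their called genes took. Over all genes tested 23.1% rose and 22.5% fell. Of 42 genes of the ATF4 program, which answers amino acid shortage, 23 rose and 10 fell, with a median of 0.19. ASNS, asparagine synthetase, was at 137 and 132 CPM with (2S,6S)-HNK, 51.4 and 50.5 CPM with E2 and 55.9 and 53.7 CPM with vehicle. Its log2 fold change was 1.398 ± 0.04 (SE, edgeR, adjusted p = 6.02e-34). The serine synthesis gene PHGDH rose by 0.69 ± 0.03 and PSAT1 by 0.41 ± 0.03, while the amino acid transporter SLC7A5 and the factor ATF5 fell by 0.65 and 0.70. ATF4 itself differed by -0.08, a call lost under 3 other settings (adjusted p up to 0.109, edgeR without (2S,6S)-HNK replicate 1), and DDIT3, at -0.15, did not pass. Of 47 heat shock proteins and co-chaperones, 28 fell and 6 rose, with a median of -0.16. DNAJA1 was at 88.2 and 85.3 CPM against 128 and 127 CPM with E2, and HSPA8 at 1231 and 1245 CPM against 1604 and 1606 CPM. Vehicle was higher in both genes, at 224 and 230 CPM and 2293 and 2376 CPM. Of 27 NRF2 targets, the antioxidant genes, 14 fell and 2 rose (1 with correction for GC content and length, and 1 without E2 replicate 1, E2 replicate 2 or (2S,6S)-HNK replicate 2), among them GCLM, a subunit of the enzyme that makes the precursor of glutathione, at -0.86 ± 0.09, and NQO1 at -0.48 ± 0.04. Of 28 p53 targets 8 rose and 7 fell (28.6% and 25.0%), near the shares over all genes, but 3 fell without E2 replicate 1, and the median of -0.04 was 0.09 without (2S,6S)-HNK replicate 2.

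Cholesterol synthesis, glycolysis and ribosomal protein genes were mostly higher, where 23.1% of all genes tested were higher and 22.5% lower. Of 27 cholesterol synthesis genes, 18 rose and 3 fell (5 with correction for GC content and length), with a median of 0.24. INSIG1, the sterol sensor's anchor, was at 504 and 495 CPM against 312 and 311 CPM with E2, a log2 fold change of 0.68 ± 0.02 (SE, edgeR, adjusted p = 1.00e-28), and SREBF1 fell by 0.31. Of 39 glycolysis and hypoxia genes, 26 rose and 5 fell (8 with that correction). CA9, a carbonic anhydrase induced by hypoxia, was at 5.51 and 5.80 CPM against 2.195 and 2.12 CPM, a log2 fold change of 1.39 ± 0.15, and shares 571 bases with ARHGEF39. ALDOC, an aldolase, rose by 1.07 ± 0.11. HIF1A and LDHA, of the same list, fell by 0.32 and 0.17. Of 78 cytosolic ribosomal protein genes 58 rose and 6 fell, by small amounts (median 0.16), and of 76 respiratory chain subunits 26 rose and 13 fell (34.2% and 17.1%), although 8 fell without E2 replicate 2. Ribosomal protein genes have many processed copies, so reads may be lost unevenly. Of 56 cell cycle genes 17 rose and 26 fell, led by UHRF1 at -0.54 ± 0.03 and CDC25C at 0.51 ± 0.05.

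Matrix and contractile genes had members that were called at a fold change of at least 2. THBS1, thrombospondin 1, an abundant matricellular protein that activates TGF-beta, was at 854 and 873 CPM with (2S,6S)-HNK, 2214 and 2185 CPM with E2 and 1872 and 1905 CPM with vehicle. THBS1 changed by -1.35 ± 0.02 on the log2 scale (SE, edgeR, adjusted p = 5.69e-45). THBS1 shares 448 bases of exon with FSIP1. CTGF, at 603 and 610 CPM against 612 and 617 CPM, did not pass, but passed with GC and length correction without and with the replicate block (adjusted p = 0.0111 and 0.0113, edgeR), and CYR61 rose by 0.36 ± 0.02. The smooth muscle gene LMOD1 rose by 1.07 ± 0.07 and ACTG2 by 0.73 ± 0.06. Of 30 contractile genes and genes responsive to YAP or TGF-beta, 12 were higher and 10 lower, where 23.1% and 22.5% of all genes tested were. Of 27 collagen genes 13 rose and 7 fell. COL11A1 was at 165 and 163 CPM against 86.1 and 80.0 CPM, a log2 fold change of 0.98 ± 0.03, and COL16A1 fell by 0.81 ± 0.11. Of 37 matrix proteases, inhibitors and matricellular genes, a list that also holds THBS1, TNXB and CPA4, 14 rose and 14 fell. Among 32 immediate early genes 7 rose, about the share over all genes, and 13 fell, EGR1 at 0.75 ± 0.05 and KLF2 at -1.08 ± 0.10. Annexins (5 higher, or 3 without E2 replicate 1, and 3 lower of 11) and long noncoding RNAs (7 and 6 of 21) held calls of both directions, with ANXA1 at -0.57 ± 0.04, NEAT1 at -0.56 ± 0.04 and MEG3 at 0.53 ± 0.03.

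**Figure D4:**
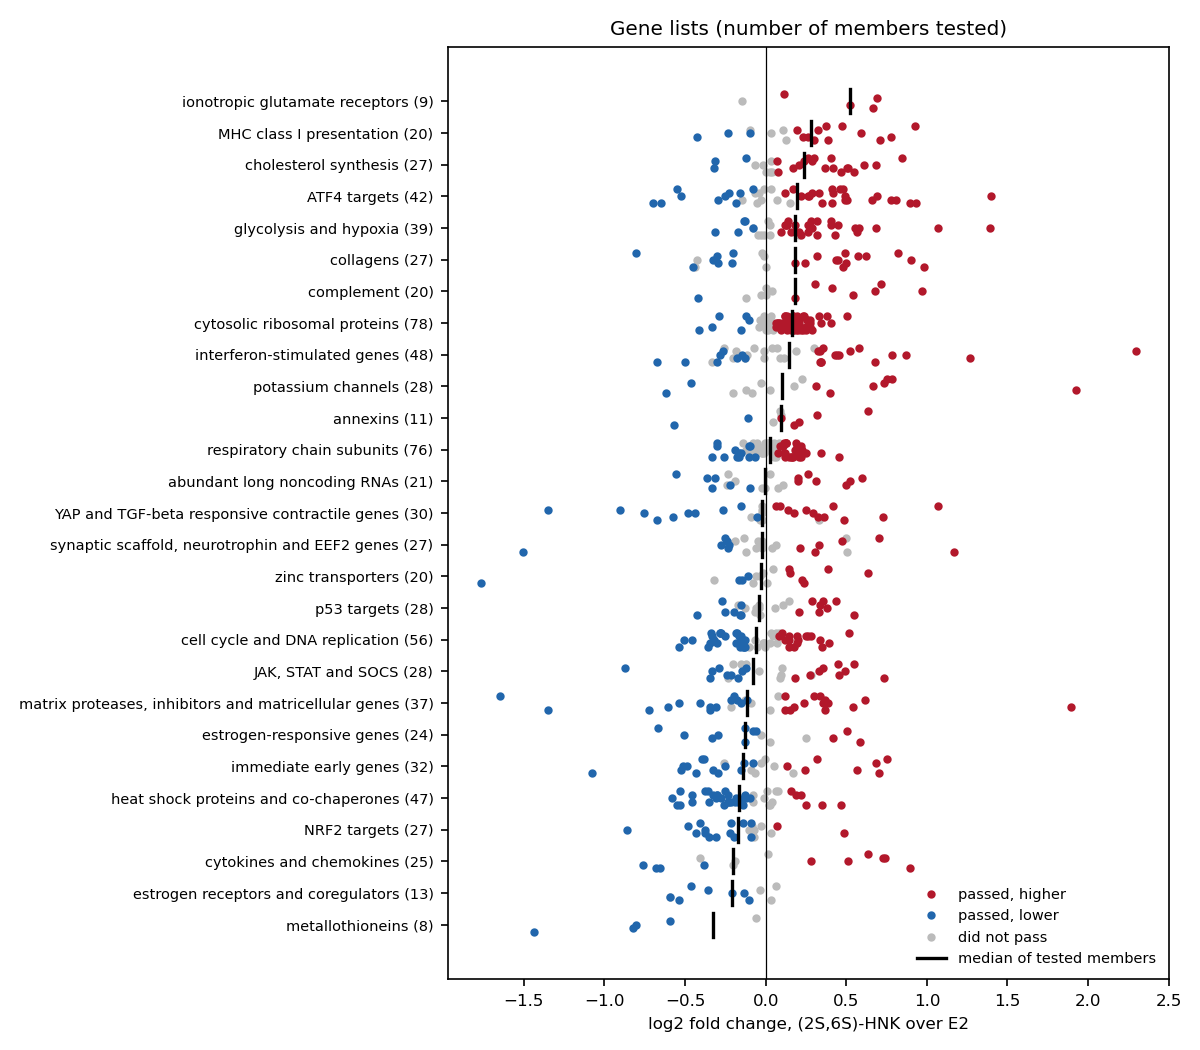
Log2 fold change of (2S,6S)-HNK over E2 (horizontal axis) for members of 27 gene lists that reached 1 CPM, as points in red (passed, higher), blue (passed, lower) or grey (did not pass), with a black line at the median of all tested members. Medians run from -0.33 for metallothioneins to 0.52 for ionotropic glutamate receptors (0.26 without E2 replicate 2 and 0.37 without (2S,6S)-HNK replicate 2), and most lists hold members on both sides of 0.

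The same libraries were compared with the related compounds at the same dose and time, in 2 pairs, to see whether the levels that set (2S,6S)-HNK apart from E2 also set it apart from them. These tests share the (2S,6S)-HNK libraries that chose the 20 genes, so they are no independent support for the rise or fall itself. Against (2R,6R)-HNK, which differs only in handedness, 405 genes (2.53%) were called, and against ketamine, the parent compound, 283 (1.77%). At any fold 43.5% and 46.1% of the genes tested passed. All 20 genes passed on the same side against (2R,6R)-HNK, 18 of them with a fold change of at least 2. Against ketamine 19 passed on the same side and 15 did so with that fold. The exception was ARC, with a log2 difference from ketamine of -0.16 (95% interval -0.53 to 0.22, edgeR, adjusted p = 0.52). The interval holds no fold change of 2.

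MT1E and SLC30A1 differed more between the mirror images than between (2S,6S)-HNK and E2. MT1E had a mean of 21.6 ± 0.172 CPM (SD, n = 2 libraries) with (2S,6S)-HNK and 118 ± 3.63 CPM with (2R,6R)-HNK, a log2 difference of -2.44 (95% interval -2.53 to -2.35), against 52.1 ± 2.09 CPM with ketamine. SLC30A1 had means of 2.42 ± 0.212, 12.4 ± 1.15 and 5.27 ± 0.253 CPM with (2S,6S)-HNK, (2R,6R)-HNK and ketamine, and its difference between the mirror images was -2.36 (95% interval -2.59 to -2.13). ASNS differed by 1.04 between the mirror images (95% interval 0.97 to 1.12) and by 0.69 from ketamine. CPA4 differed by almost the same amount from both, -1.403 and -1.418. KLF2 turned direction, since it was lower than with E2 but 0.37 higher than with (2R,6R)-HNK (adjusted p = 0.0045, edgeR), and MX1, higher than with E2, was 0.39 lower than with (2R,6R)-HNK (adjusted p = 0.0352).

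**Figure D5:**
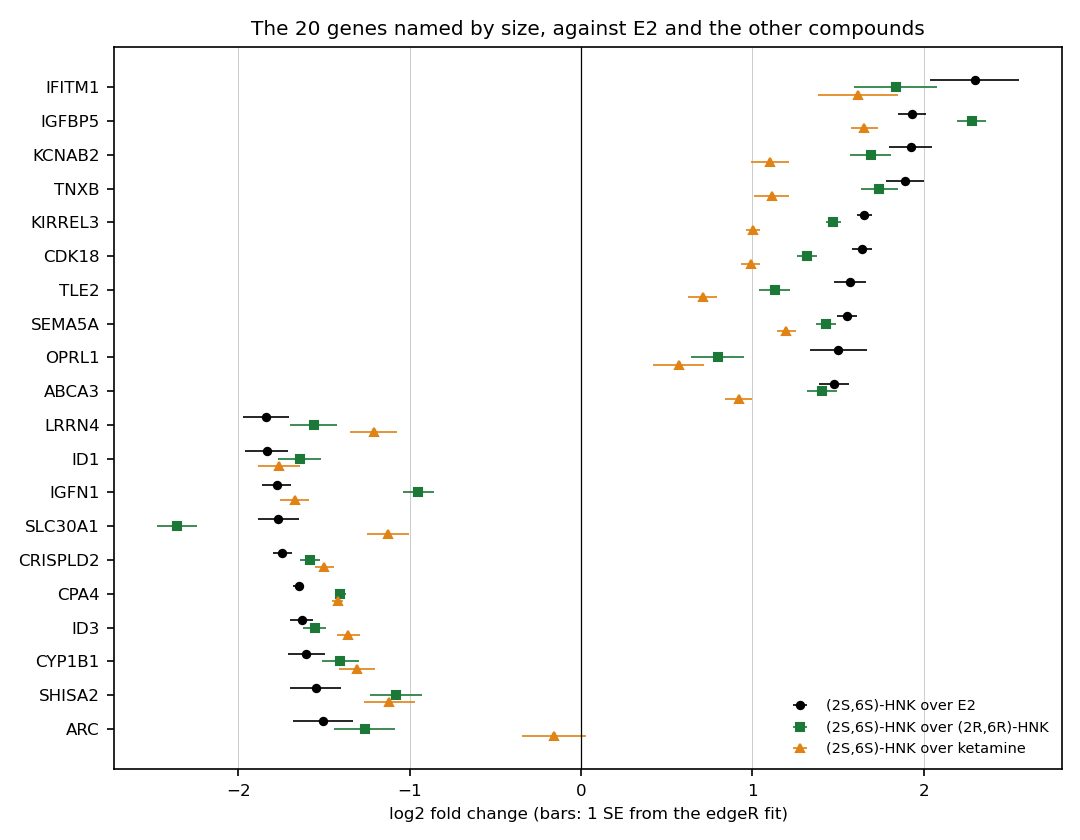
Log2 fold change of (2S,6S)-HNK over E2 (black circles), over (2R,6R)-HNK (green squares) and over ketamine (orange triangles) for the 20 genes named by size, with bars of 1 SE from the edgeR fit. All 20 lie on the same side against each comparator, and ARC against ketamine, at -0.16, is the 1 value that did not pass.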

How the data were processed

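RNA-seq was measured in HMC3 cells under 8 conditions with 2 libraries each. Amplified cDNA libraries were read as pairs and aligned by the authors to hg19 with TopHat and Bowtie (TopHat2 2.0.14 and Bowtie2 2.2.6 in the submitters' processing notes), and read pairs on each gene were counted with featureCounts 1.4.6. The values the authors deposited are raw counts per gene. Whether counting used strand is not given in the sources used here.

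Genes were filtered with filterByExpr (16004 of 25370 kept), normalized by TMM and fitted in edgeR 4.0.16 (R 4.3.3) with 1 mean per group over all 16 libraries (8 residual degrees of freedom). Quasi-likelihood tests were two-sided, with Benjamini-Hochberg adjustment over all genes of a comparison. Calls needed an adjusted p below 0.05 and an absolute log2 fold change of 1 or more. SE is the log2 fold change divided by the square root of F. For a single gene an exact permutation test of 2 against 2 libraries cannot give a p below 0.333. The floor of a count of 0 is 3 counts, and floors cover counting error only.

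Named genes are the 10 largest rises and 10 largest falls with the fold limit, a mean of at least 5 CPM and no overlap of libraries, up to 2 rises and 2 falls of each of 27 gene lists at 1 CPM or more, and receptors and genes the study follows. HLA-C, B2M, MT1X, MT2A, BST2, IFI27, DHX58, ISG15, IFITM3, STAT2, IRF9, PHGDH, PSAT1, ATF4, DDIT3, HSPA8, CTGF, CYR61, ID2, SMAD6, IFIT2, IFIT3, MTF1, GRIN2B, GRINA, SOCS2, SOCS4, SOCS5, SOCS6, OSMR, IL6ST, LIFR, STAT5A, STAT5B, STAT6, JAK1, TYK2 and KLF2 or MX1 against the other compounds were chosen after their values were seen. The text gives those the results turn on, and the other named genes are not reported here. The gene sets, members and tests were chosen with earlier results of these data known. Gene positions, lengths and GC content came from GENCODE on GRCh37 (95.96% of tested genes), and promoters from RefSeq. Alternatives were other normalizations and filters, DESeq2 1.42.0, a replicate block, GC and length correction, halved counts and each library left out. The scripts were tested on simulated data.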

Additional observations from a re-analysis of the deposited data

How the results depend on the processing

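The 20 genes named by size kept their direction and their call in all 300 combinations of gene and other setting. The counts of calls depended on how scarce genes were treated. Fitting DESeq2 to the groups compared alone gave 271 calls against E2 (168 higher and 103 lower), 235 against (2R,6R)-HNK (139 and 96) and 164 against ketamine (60 and 104). Requiring 10 counts in every library gave 268 (160 and 108), 252 (146 and 106) and 161 (59 and 102), since fewer genes were tested. The cause of the first drop was not tested. Leaving out each library in turn gave 404 to 438 calls against E2 (223 to 262 higher, 155 to 181 lower, 6122 to 6507 at any fold), 354 to 383 against (2R,6R)-HNK (208 to 237 and 141 to 166) and 239 to 288 against ketamine (93 to 113 and 138 to 183). In those fits the lone library is assumed to vary like the other groups, and 298 to 310 of the 438 genes were shared with the calls above. BDNF, which did not pass, changed sign with GC and length correction (0.015), with that correction and the replicate block (0.015), and when (2S,6S)-HNK replicate 2 or E2 replicate 2 was left out (-0.062 to 0.023 over the 4 fits without 1 library).

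No difference shared by replicate number was seen. The differences between replicates correlated at 0.0141 between the (2S,6S)-HNK and E2 groups (-0.0258 to 0.0451 over all pairs of groups). These correlations cannot show whether libraries of the same number were handled together. With the replicate number as a block, 434 genes were called against E2, 431 of them among the 438. Across genes, the Spearman correlation of log2 fold change and GC content was 0.122 and -0.0116 after correction. Of 161 named genes, 21 lost a call in 80 combinations of gene and setting and 3 gained one in 12, most of them genes of low count or small change. Depth limits genes below 1 CPM, where about 3 counts, or 0.0542 CPM in the shallowest library, is the floor.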
